A study of Mus musculus with 12 samples.

Results

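The combined response of L929 cells to HT-DNA and AOA was set against Mock, the cells that received neither. L929 is an established mouse fibroblast line. The comparison used 6 of the 12 RNA sequencing libraries of the series, chosen by their labels: 3 HT-DNA+AOA libraries and 3 Mock libraries. HT-DNA+AOA cells were wild-type L929 cells given 0.5 mM AOA from 1 h before the DNA and then HT-DNA, a transfected DNA, for 6 h. The HT-DNA dose in the labels is 0.5 with a garbled unit, read here as µg per ml. Mock cells were wild-type L929 cells, and the labels do not say whether they received the transfection reagent. The labels leave AOA unexplained; in cell work these letters usually stand for aminooxyacetate, which blocks aminotransferases. Since both agents differ between the groups, their separate parts cannot be told apart here, and a gene's level under HT-DNA without AOA is given only beside the comparison. HT-DNA cells received the same DNA for the same time without AOA, and 3 further libraries, in which 20 mM Asp was added to HT-DNA and AOA, only share the fit's estimate of the spread. All 4 groups of 3 libraries come from this 1 line. No label calls the replicates separate cultures, and the spread behind the p-values may therefore be technical.

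Of 56287 entries in the deposited table, 14694 genes had enough counts to be tested. In HT-DNA+AOA cells 4473 genes (30.4% of those tested) were higher and 4518 (30.7%) were lower than in Mock cells, by edgeR's quasi-likelihood test at an adjusted p under 0.05. Larger changes were fewer: 1150 genes (7.83%) were higher and 1226 (8.34%) lower by more than 1.5-fold, by edgeR's test against that fold (glmTreat). At the other end, 2249 genes (15.3%) were held near the Mock level, meaning that the 95% interval of their fold change lay wholly within 1.2-fold in either direction. A further 3820 genes were neither called nor held within 1.2-fold, so their position is not known at this depth. In 4718 genes (32.1%) all 3 HT-DNA+AOA libraries lay above all 3 Mock libraries, and in 4755 (32.4%) all lay below. The largest changes were mostly rises: 92 genes rose and 19 fell 8-fold or more, against 868 and 887 at 2-fold or more. With library size alone as scaling, in place of TMM factors, the split of called genes was 3419 higher and 5759 lower, and the median of all genes shifted to -0.12 on the log2 scale. Fold changes below are log2 ratios of HT-DNA+AOA over Mock with TMM scaling, under which the median of all genes was -0.0026. Counts of higher and lower list members below are to be read against 30.4% and 30.7% of all genes tested.

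**Figure D1:**
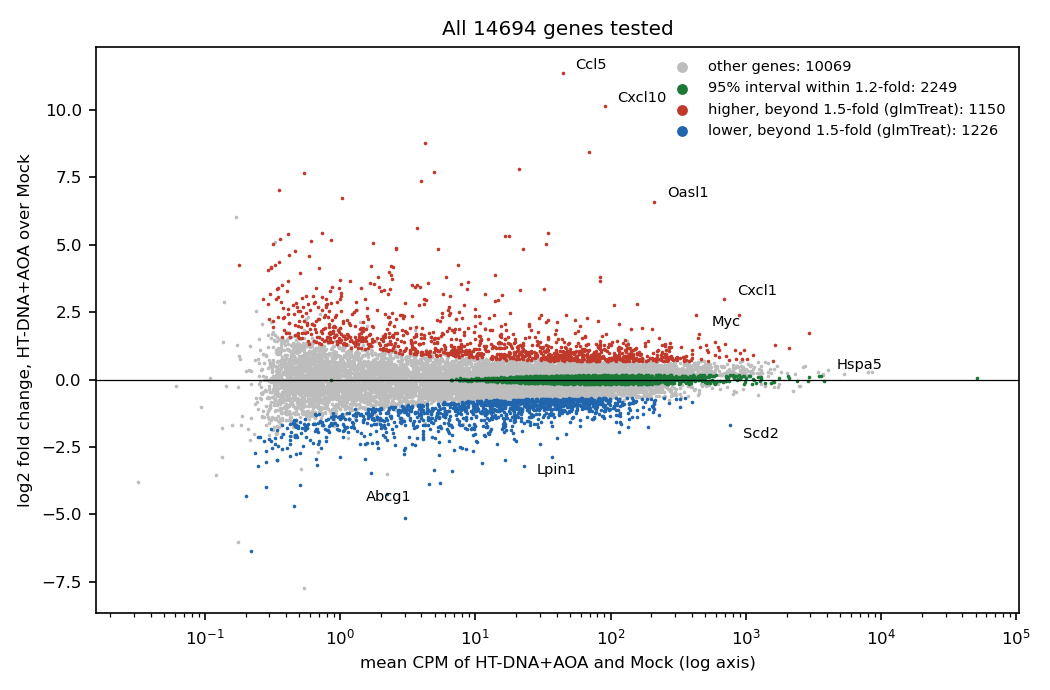
Each point is 1 of the 14694 genes tested, with mean CPM of both groups on a log axis across and the log2 fold change of HT-DNA+AOA over Mock upward. Red and blue points are the 1150 genes higher and 1226 genes lower by more than 1.5-fold, green points the 2249 genes held within 1.2-fold; Ccl5 had 2 Mock counts, so its height depends on the fit.

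Cells that find DNA in the cytosol make a second messenger through the sensor cGAS, and the adaptor STING then turns on interferons and inflammatory genes. Secreted type I interferon acts on its receptor, and a transcription factor complex that includes IRF9 drives interferon-stimulated genes, whose products block viruses. Aminotransferases move amino groups between amino acids and keto acids, and the aspartate aminotransferases Got1 and Got2 also serve the malate-aspartate shuttle, which carries reducing power into mitochondria.

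Programs of interferon and inflammation ended furthest above Mock. Of 81 interferon-stimulated genes tested, 68 were higher and 5 lower (30.4% and 30.7% of all genes). By more than 1.5-fold 56 were higher, and the median log2 fold change was 1.53. Members almost silent in Mock, such as Ddx60 (74 counts with HT-DNA+AOA, 0 in Mock), passed the filter only through libraries where they were high. For these a call of higher largely followed from being tested. Other listed genes, such as Mx1 (35 and 2 counts) and Il15 (9 and 13), had too few counts to be tested. Cxcl10, a chemokine that attracts T cells, stood at 155, 188 and 199.8 CPM in HT-DNA+AOA libraries and 0.178, 0.13 and 0.155 CPM in Mock libraries (a log2 fold change of 10.15 with SE 0.15; edgeR adjusted p = 1.62e-20). The gene of the RNA-binding antiviral protein Ifit1 stood at 135, 145 and 132 CPM against 0.266, 0.521 and 0.387 CPM in Mock (8.43, SE 0.13, edgeR adjusted p = 1.48e-21). The gene Isg15, whose product is attached to other proteins like ubiquitin, stood at 67.2, 61.2 and 65.7 CPM against 1.6, 1.87 and 2.36 CPM in Mock (5.04, SE 0.10, edgeR adjusted p = 9.83e-20). In each of the 3 genes the groups lay far apart, and Cxcl10 and Ifit1 were nearly silent in Mock. An SE here is the absolute log2 fold change divided by the square root of the test's F statistic. For genes nearly silent in Mock, such as Cxcl10, Ifit1, Rsad2 and Abcb1a, it understates the counting error of their few Mock counts.

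The upstream sequences of these 3 genes are shown because they carry short matches to elements of interferon and NF-kB responses. Each is the 250 bases before the RefSeq gene start (build GRCm38.p6), 5′ to 3′ on the gene's strand, at chr5:92348890-92349139 (minus strand) for Cxcl10, chr19:34640639-34640888 (plus strand) for Ifit1 and chr4:156200819-156201068 (minus strand) for Isg15. Capitals mark GAAANNGAA, the core of the interferon-stimulated response element (ISRE), on either strand, and in Cxcl10 also the NF-kB match GGGNNTTCC.
Cxcl10: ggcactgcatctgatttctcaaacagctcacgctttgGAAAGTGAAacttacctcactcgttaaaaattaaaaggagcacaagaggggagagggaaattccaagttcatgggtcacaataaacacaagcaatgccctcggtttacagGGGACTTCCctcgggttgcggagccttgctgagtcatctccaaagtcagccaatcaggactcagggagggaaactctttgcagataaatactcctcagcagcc
Ifit1: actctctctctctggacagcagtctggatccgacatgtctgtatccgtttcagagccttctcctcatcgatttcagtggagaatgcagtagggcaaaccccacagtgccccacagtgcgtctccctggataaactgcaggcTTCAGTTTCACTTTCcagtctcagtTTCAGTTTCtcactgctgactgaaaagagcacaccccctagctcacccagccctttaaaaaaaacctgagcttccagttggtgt
Isg15: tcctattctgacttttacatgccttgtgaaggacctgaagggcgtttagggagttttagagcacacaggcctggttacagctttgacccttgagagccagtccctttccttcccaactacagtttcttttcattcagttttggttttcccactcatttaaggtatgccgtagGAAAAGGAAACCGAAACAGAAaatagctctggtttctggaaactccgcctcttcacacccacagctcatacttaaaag
Cxcl10 had its ISRE match starting at base -213 and its match to GGGNNTTCC at -103, counted from the gene start. The 3 ISRE matches of Ifit1 began at -109, -103 and -84 on the opposite strand, and those of Isg15 at -78, -72 and -66; neighbouring matches 6 bases apart overlap. Over windows that also take in 50 bases past the start, the ISRE core was present for 37 of 64 interferon-stimulated genes with a window (57.8%), against 848 of 10036 tested genes (8.45%) and 8.56% of all 32851 RefSeq windows. Among genes higher by more than 1.5-fold the share was 12.5%, and among those lower by more than 1.5-fold it was 7.61%. The NF-kB letters stood in 9.38% of the higher and 7.94% of the lower genes of that size, against 8.62% of tested genes. Only the letters GGGNNTTCC were searched, so other forms of the NF-kB element are neither marked nor counted.

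Other antiviral genes rose with them. Oasl1, an oligoadenylate synthetase-like protein, was at 409, 428 and 410.4 CPM with HT-DNA+AOA and 3.77, 4.26 and 4.76 CPM in Mock, and Rsad2, the antiviral enzyme viperin, at 41.1, 42.4 and 42.2 CPM with HT-DNA+AOA and 0.266, 0.261 and 0.0387 CPM in Mock. The log2 fold change of Oasl1 was 6.60 (SE 0.068; adjusted p = 2.95e-25, edgeR) and that of Rsad2 7.80 (SE 0.20; adjusted p = 4.92e-17, edgeR). Oasl2, Ifit3 and the RNA sensor Ifih1 rose by 5.44, 5.33 and 5.31. For genes with 3 or fewer Mock counts, ratios of summed counts replace the fitted change, with a 95% interval that covers counting error only. Ccl5, a chemokine for T cells and monocytes, had 6095 counts with HT-DNA+AOA and 2 in Mock, a ratio of 3187 (882 to 26321). Ccl4 had 539 and 3 counts (188, 63.9 to 914), Ifit3b 677 and 3 (236, 80.4 to 1147) and Heatr9 570 and 1 (596, 107 to 23584). Ddx60, an antiviral helicase, had 74 counts with HT-DNA+AOA and 0 in Mock, at least 25.8-fold higher against a floor of 3 counts over the group; with Ddx60 at that bound the list's median stayed 1.53. The interferon list was not uniform. Mov10, Trafd1, Pml, Tdrd7 and Lgals3bp fell (-0.72, -0.58, -0.44, -0.24 and -0.15). Ifi27 at 77.8 ± 8.74 against 71.7 ± 2.41 CPM in Mock (SD, n = 3) and Tap2 (-0.13) were held within 1.2-fold. Ifit, Oas, Oasl and Apol9 genes share sequence with close copies, between which estimated counts can move.

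Chemokines, cytokines and acute phase genes had the highest median of all lists, 2.02, with 20 of 28 tested members higher and 3 lower; 14 of the 42 listed genes had too few counts. Cxcl1, a neutrophil chemokine, was at 992, 1361 and 1344 CPM with HT-DNA+AOA against 147, 148 and 167 CPM in Mock (3.0, SE 0.12, edgeR adjusted p = 3.26e-09). Ccl2, a monocyte chemokine, was at 1350.1, 1475 and 1625 CPM against 288, 273 and 293 CPM (2.38, SE 0.058, edgeR adjusted p = 6.11e-18). Csf1, the macrophage growth factor, was among the most abundant transcripts of the cells, at 3974, 4795 and 4895 CPM against 1343, 1346 and 1384 CPM in Mock (1.75, SE 0.058, edgeR adjusted p = 9.92e-16). None of these groups overlapped. Cxcl2, Lcn2 (a siderophore-binding acute phase protein) and Lif (a cytokine of the Il6 family) rose by 3.82, 2.75 and 2.07. Il6 itself had 143 counts with HT-DNA+AOA and 1 in Mock, a ratio of 149.5 (26.4 to 5947). Il6 passed the filter only through libraries where it was high, so its call largely followed from being tested. The list's members that fell were Il11, Tnfaip2 and Ptges, at -0.83, -0.29 and -0.12. No interferon ligand passed the filter: over the HT-DNA+AOA libraries the interferon beta gene Ifnb1 had 2 counts and over Mock 0, and Ifna4 had 4 and 0.

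**Figure D2:**
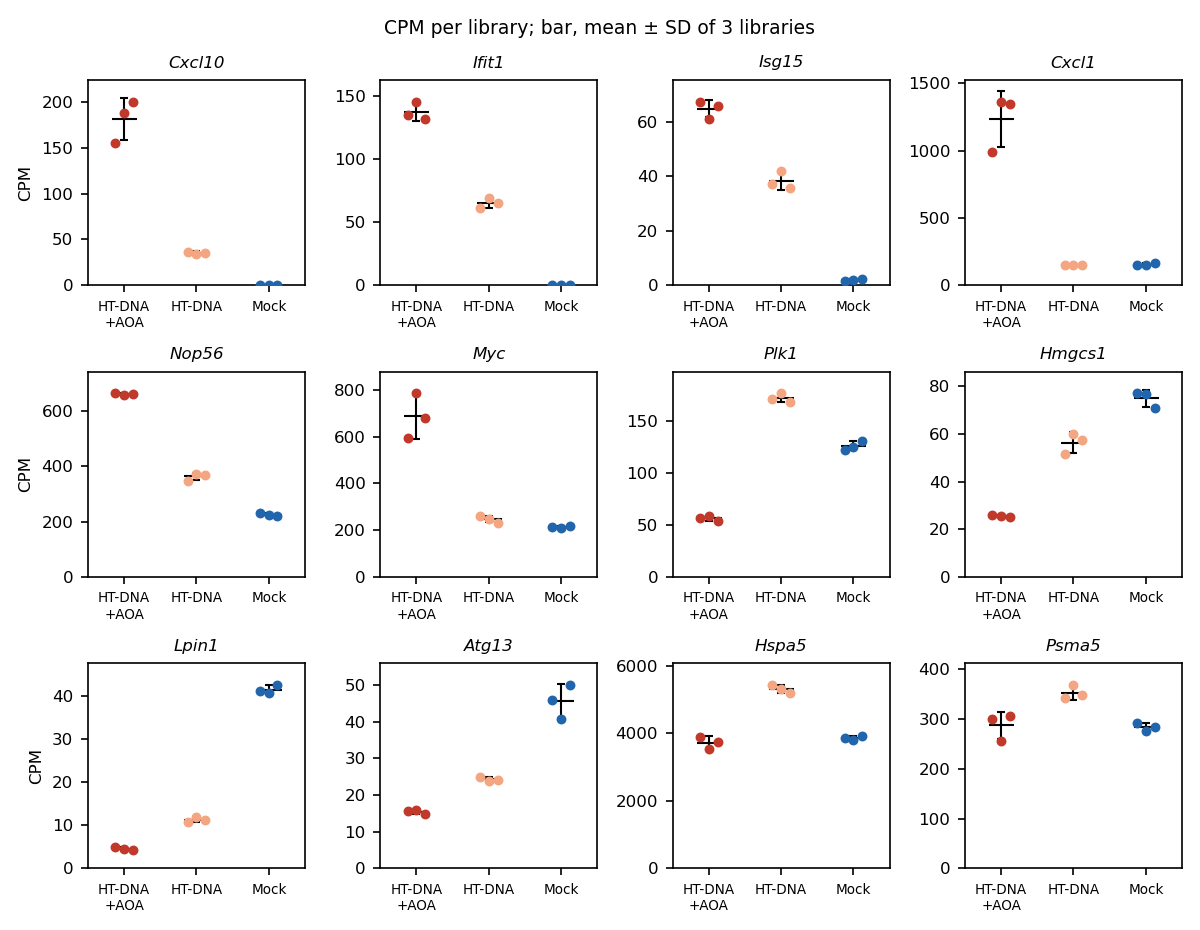
CPM per library (points) with the mean and SD of 3 libraries (bars) for 12 genes in HT-DNA+AOA, HT-DNA and Mock cells, each on its own linear axis from 0. Interferon genes, Cxcl1, Nop56 and Myc are highest with HT-DNA+AOA, Plk1, Hmgcs1, Lpin1 and Atg13 are lowest there, and Hspa5 and Psma5 overlap Mock.

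The upstream machinery ended on both sides of Mock. Of 24 genes of DNA and RNA sensing, 12 were higher, 5 lower (8 with library size alone) and 5 held within 1.2-fold (15.3% of all genes). Cgas, the DNA sensor, was at 9.22, 9.37 and 8.98 CPM against 5.99, 5.78 and 4.26 CPM in Mock (0.79, SE 0.13, edgeR adjusted p = 1.77e-05). Sting1, its adaptor, was at 3.99, 4.69 and 4.61 CPM against 7.68, 7.91 and 9.1 CPM (-0.89, SE 0.12, edgeR adjusted p = 9.43e-07). So the sensor was higher and the adaptor lower, without overlap in either gene. The kinase Tbk1 and the RNA-sensing adaptor Mavs also fell (-0.61 and -0.49), while the DNA exonuclease Trex1 rose by 2.28 and the RNA sensors Ddx58 and Dhx58 by 2.41 and 2.47. Ikbke (0.03) and Traf3 (0.09) were held near Mock.

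Interferon signalling components also ended on both sides. Of 20 tested, 10 were higher and 6 lower. Without HT-DNA+AOA replicate 3 the lower ones numbered 3. The receptor chain Ifnar1 and its kinase Tyk2 fell, Tyk2 to 18.98, 16.6 and 16.6 CPM against 40.3, 43.8 and 41.2 CPM in Mock (-1.27, SE 0.065, edgeR adjusted p = 3.36e-13); Ifnar1 had a log2 fold change of -0.64. Jak1 and Ifnar2 stayed within 1.2-fold (-0.12 and 0.11). Stat2 and Irf9 rose by 0.74 and 1.21, Irf7, a driver of interferon genes, by 1.76, and Usp18, which removes Isg15 and damps the receptor, by 3.36. Among 21 NF-kB subunits and feedback genes 13 were higher and 4 lower. The inhibitors Nfkbia and Nfkbiz and the subunits Relb and Nfkb2 rose, by 1.46, 1.38, 1.83 and 1.15. Rela, the main activating subunit, was within 1.2-fold, at 83.3 ± 7.12 CPM against 91.3 ± 5.3 CPM in Mock (SD, n = 3), and the kinase subunits Ikbkb and Ikbkg fell (-0.58 and -0.44). Class I antigen presentation moved less: 11 of 20 were higher and 4 lower, led by the peptide transporter Tap1 (0.87) and H2-Q4 (0.63), with the light chain B2m at 0.25; H2 genes are near-identical to each other, so their counts are uncertain.

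A growth program ended above Mock as well. Ribosome biogenesis, the nucleolar work of making ribosomal RNA and assembling subunits, had 48 of 50 genes higher and 0 lower, with a median of 0.64. Nop56, a core protein of box C/D snoRNPs, was at 664, 659 and 663 CPM with HT-DNA+AOA against 229.9, 224 and 219.6 CPM in Mock (1.56, SE 0.04, edgeR adjusted p = 4.32e-18). Ncl, the nucleolar protein nucleolin, was at 2771, 2908 and 2976 CPM against 1423, 1331 and 1099 CPM (1.17, SE 0.077, edgeR adjusted p = 4.72e-09). Rrs1, Nop2 and Rrp1b rose by 1.36, 1.18 and 1.18, whereas Ddx10 (-0.09) and Rcl1 (0.02) were held near Mock. Myc, a transcription factor known to drive ribosome genes, was at 595, 785 and 681 CPM against 214, 209.5 and 217 CPM (1.68, SE 0.079, edgeR adjusted p = 2.15e-10). Mxd4, a repressor that shares the partner Max with Myc, was among the 12 largest falls, at 3.69, 3.27 and 4.38 CPM against 28.4, 29.8 and 30.8 CPM (-2.98, SE 0.12, edgeR adjusted p = 3.11e-14).

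Translation genes followed at smaller size. Of 32 translation factors 25 were higher and 1 lower (5 with library size alone), median 0.33. Eif2b3, a subunit of the exchange factor for eIF2, was at 91.5 ± 1.73 CPM against 43.8 ± 1.95 CPM in Mock (SD, n = 3), a log2 fold change of 1.06, and the cap-binding protein Eif4e rose by 0.77. The factor that fell, Eif4ebp2, is an inhibitor of Eif4e (-0.55), but a related inhibitor, Eif4ebp1, rose by 0.18. Aminoacyl-tRNA synthetases, which charge tRNAs, were higher in 17 of 20 and lower in 1 (Qars, for glutamine, -0.27), with no member beyond 1.5-fold by glmTreat. Dars, the aspartate enzyme, and Hars, the histidine enzyme, led at 0.66 and 0.66. Ribosomal protein genes had 36 of 54 higher and 1 lower, none beyond 1.5-fold, and 18 held within 1.2-fold; with library size alone 16 were higher. Rpl3 led at 0.50, and Rps4x was at 1025 ± 54.9 CPM against 989.5 ± 35.8 CPM in Mock (SD, n = 3). In purine, pyrimidine and dNTP synthesis 23 of 33 were higher and 3 lower (6 with library size alone). Umps, which makes UMP, was at 524, 546 and 526 CPM against 270.3, 269 and 281 CPM in Mock (0.96, SE 0.04, edgeR adjusted p = 1.27e-14), and Prps1, which makes the sugar donor of nucleotides, rose by 0.92. The spliceosome list was mixed, with 25 of 46 higher, 10 lower (18 with library size alone) and 14 within 1.2-fold; Hnrnpu rose by 0.90 and Ddx46 fell (-0.57).

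Stress programs ended on both sides of Mock. ATF4 is the transcription factor that cells use when amino acids run short or proteins misfold. Of 38 genes of the ATF4 and amino acid response 24 were higher and 6 lower, median 0.25, and Atf4 itself was held near Mock at 660.4, 653 and 651 CPM against 673, 687 and 748 CPM (-0.10, 95% interval -0.20 to -0.01). Ppp1r15a, the phosphatase subunit that restores translation, was at 257, 362 and 325 CPM against 80.5, 88.1 and 91.2 CPM in Mock (1.86, SE 0.12, edgeR adjusted p = 1.68e-07). Ddit3, the stress factor CHOP, was at 393, 400.2 and 400.3 CPM against 159, 152 and 152 CPM (1.37, SE 0.043, edgeR adjusted p = 1.28e-16). These genes lay above Mock in every library, while the kinase-like Trib3 (0.05) and the serine enzyme Psph (0.06) were held near it. Serine and folate genes rose modestly, Psat1 by 0.52, Mthfd2 by 0.51 and Shmt2 by 0.33. Of 5 members that fell by more than 1.5-fold 3 encode transporters, the cystine transporter Slc7a11 at 11.3, 15.1 and 13.4 CPM against 43.5, 42.2 and 38.3 CPM in Mock (-1.63, SE 0.082, edgeR adjusted p = 2.40e-13), the glycine transporter Slc6a9 (-0.88) and the neutral amino acid transporter Slc38a2 (-0.84). The other 2 were Herpud1 (-1.36) and the transcription factor Atf5 (-0.71). The letters TTGCATCA, an amino acid response element, stood in windows of 9 of 33 members (27.3%), against 0.797% of tested genes.

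Genes of the endoplasmic reticulum, where secreted proteins fold, ended below Mock. Of 31 folding and degradation genes 2 were higher and 24 lower, median -0.28. Herpud1 and Syvn1, parts of the machinery that removes misfolded proteins, led the falls: Syvn1 was at 53.2, 48.8 and 44.8 CPM against 126, 125 and 122 CPM in Mock (-1.35, SE 0.059, edgeR adjusted p = 2.19e-14). The stress sensor Eif2ak3 (PERK) fell (-1.08), while another sensor, Ern1 (IRE1), and the oxidase Ero1a rose by 0.79 and 0.69. Hspa5, the main chaperone of this compartment, was held near Mock at 3892, 3526 and 3754 CPM against 3864, 3796 and 3927 CPM (-0.05, 95% interval -0.15 to 0.04), although it averaged 5312 CPM with HT-DNA alone. Heat shock chaperones went both ways, 11 of 24 higher and 9 lower (30.4% and 30.7% of all genes), with a median of -0.09. The inducible Hspa1b and the cytosolic Hspa8 fell (-1.43 and -0.57), and Hspa8 averaged 995 ± 108 CPM against 1476 ± 38.03 CPM in Mock (SD, n = 3). The mitochondrial chaperones Hspd1, Hspe1 and Hspa9 rose by 0.66, 0.32 and 0.46, and Hsp90aa1 by 0.59. Hsp90ab1 was both called higher and held within 1.2-fold (0.13, 95% interval 0.05 to 0.22).

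The aspartate aminotransferases themselves moved little. Got1 was at 169.6, 162 and 174 CPM with HT-DNA+AOA against 125, 125 and 135 CPM in Mock (0.39, SE 0.045, edgeR adjusted p = 1.05e-07) and Got2 at 399, 423 and 398 CPM against 319.6, 328 and 339 CPM (0.31, SE 0.042, edgeR adjusted p = 1.64e-06). Both were higher without overlap and by less than 1.5-fold. Asns, which makes asparagine from aspartate, rose by 0.24 (SE 0.042, edgeR adjusted p = 3.80e-05). Of 13 aminotransferases and related enzymes 7 were higher and 6 lower, Oat (ornithine) and Bcat2 (branched-chain amino acids) falling (-0.65 and -0.58) and Phykpl rising by 0.87. In aspartate metabolism and the shuttle 13 of 22 were higher and 7 lower. The enzyme Adsl, which uses aspartate in purine synthesis, rose to 167 ± 3.18 CPM against 92.4 ± 5.09 CPM in Mock (SD, n = 3; 0.85), while both mitochondrial aspartate carriers, Slc25a12 and Slc25a13, fell (-0.62 and -0.71).

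Central energy genes differed by pathway in how near to Mock they ended. In the nuclear-encoded respiratory chain 23 of 35 genes were held within 1.2-fold and none passed 1.5-fold; 9 were higher and 2 lower with TMM scaling, 2 and 10 with library size alone, and 14 were higher without Mock replicate 3. Atp5a1, a subunit of ATP synthase, was at 948, 970.3 and 931 CPM against 879, 870.0 and 945 CPM in Mock (0.08, 95% interval -0.01 to 0.17). In the TCA cycle and glutamine entry 11 of 29 were within 1.2-fold, 14 higher and 7 lower. The members beyond 1.5-fold by glmTreat were Glul, which makes glutamine, at 149.8, 159 and 157 CPM against 75.1, 73.5 and 70.5 CPM in Mock (1.09, SE 0.045, edgeR adjusted p = 1.03e-14), and the cytosolic Idh1, which fell (-0.90). The ketoglutarate dehydrogenase subunits Dlst, Ogdh and Dld and the glutamate dehydrogenase Glud1 rose by 0.60, 0.41, 0.36 and 0.59. Glycolysis and HIF targets had 19 of 38 higher and 10 lower. The lactate carrier Slc16a1, the hexokinase Hk2 and the peptide hormone Adm rose by 1.04, 1.04 and 1.30, Pfkfb4 and Aldoc fell (-1.26 and -0.89), and Pkm, the last kinase of the pathway, was within 1.2-fold at 2870.4, 2869.6 and 2733 CPM against 2856, 2849 and 3044 CPM. Mitochondrial-encoded genes, which can share reads with nuclear copies, had 3 of 13 held within 1.2-fold, with 2 of 13 higher (mt-Co1 and mt-Cytb) and 2 lower (mt-Nd1 and mt-Nd2).

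NADPH and antioxidant genes leaned below Mock. Of 31 NRF2 and glutathione genes 17 were lower and 8 higher. Pgd, an NADPH-making enzyme of the pentose phosphate pathway, was at 138, 127 and 128 CPM with HT-DNA+AOA against 315, 323 and 331 CPM in Mock (-1.30, SE 0.044, edgeR adjusted p = 4.33e-16). G6pdx of the same pathway and catalase (Cat) fell (-0.70 and -1.52). The metallothioneins Mt1 and Mt2 and the haem oxygenase Hmox1 rose, by 0.63, 1.10 and 0.68, and the peroxidase Prdx1 was held near Mock (-0.03).

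Lipid synthesis ended below Mock almost throughout. Cells make cholesterol and fatty acids with enzymes that SREBP factors switch on when sterols are low. Of 32 sterol and fatty acid genes 28 were lower and 0 higher, 12 beyond 1.5-fold, with a median of -0.55. Lpin1, a phosphatidate phosphatase, was at 4.98, 4.38 and 4.15 CPM against 41.2, 40.6 and 42.5 CPM in Mock (-3.21, SE 0.12, edgeR adjusted p = 4.39e-15). Hmgcs1, which makes HMG-CoA, was at 25.9, 25.4 and 25.2 CPM against 77.01, 76.9 and 70.97 CPM (-1.56, SE 0.06, edgeR adjusted p = 3.22e-15). An abundant gene to fall was Scd2, which desaturates fatty acids, at 359, 365 and 363 CPM against 1179, 1169 and 1167 CPM (-1.69, SE 0.041, edgeR adjusted p = 1.56e-18). All 3 genes were lower in every HT-DNA+AOA library. Mvd and Dhcr7 of cholesterol synthesis fell (-2.21 and -1.54), as did the regulator Insig1 (-1.57), whereas the first enzymes of fatty acid synthesis, Acly and Acaca, were held within 1.2-fold (-0.07 and 0.01). Genes of sterol export were lower as well: of 11 export and LXR genes 7 were lower and 2 higher. Abcg1, a sterol exporter, was at 0.698, 0.423 and 0.632 CPM against 6.57, 8.17 and 10.6 CPM in Mock (-3.88, SE 0.23, edgeR adjusted p = 3.13e-12), and Abca1 and Apoe fell (-1.01 and -0.95).

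Mitosis genes had the lowest median of all lists, -0.61. Of 36 genes of G2 and M phase 30 were lower and 2 higher. Plk1, a mitotic kinase, was at 56.4, 58.7 and 54.1 CPM with HT-DNA+AOA against 122, 125 and 131 CPM in Mock (-1.16, SE 0.048, edgeR adjusted p = 1.09e-14). Nusap1, a spindle protein, was at 11.1, 13.7 and 10.7 CPM against 32.5, 33.2 and 29.97 CPM (-1.42, SE 0.083, edgeR adjusted p = 2.30e-12). The cyclin Ccnb1 and the anaphase activator Cdc20 fell (-0.69 and -0.40), while Cdk1, Ccna2, Birc5 and Prc1 were held within 1.2-fold, at -0.07, 0.04, -0.01 and -0.04. S phase genes had a median of -0.16. Of 38 tested, 20 were lower, 7 higher (4 with library size alone) and 12 within 1.2-fold. E2f2 (-1.88) and Pcna, the sliding clamp (-0.45), fell, Ccne2 rose by 0.89, and the helicase subunits Mcm6 and Mcm2 stayed within 1.2-fold (-0.04 and -0.12). Among 9 histone genes tested, 2 were higher and 2 lower. The figures label this list replication-dependent, but it took in replacement variants such as H3f3a, H3f3b and H2az1. Its members H2bc4, H3c2 and H1f3 were not called.

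Hmgcs1 and Cdc20 belong to lists at the low end, and their upstream sequences are shown. They lie at chr13:119690101-119690350 (plus strand) and chr4:118437344-118437593 (minus strand) of GRCm38.p6. Each is the 250 bases before the RefSeq start on the gene's strand. Capitals in Hmgcs1 mark the sterol response letters TCACNCCAC and CCAAT on either strand, and in Cdc20 the cell cycle homology letters TTTGAA.
Hmgcs1: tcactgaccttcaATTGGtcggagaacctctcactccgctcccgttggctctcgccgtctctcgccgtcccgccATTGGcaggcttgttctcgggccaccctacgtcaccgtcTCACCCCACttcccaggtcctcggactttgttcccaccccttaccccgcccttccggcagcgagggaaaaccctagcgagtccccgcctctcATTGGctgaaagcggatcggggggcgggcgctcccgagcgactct
Cdc20: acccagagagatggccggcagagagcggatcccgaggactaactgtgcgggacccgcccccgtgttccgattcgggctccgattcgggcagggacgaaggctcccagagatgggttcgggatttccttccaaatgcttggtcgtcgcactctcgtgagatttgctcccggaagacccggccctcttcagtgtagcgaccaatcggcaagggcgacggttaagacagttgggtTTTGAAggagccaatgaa
Hmgcs1 held the sterol letters from base -137 and CCAAT on the opposite strand from -237, -176 and -45. Cdc20 held TTTGAA from -18, and its sequence also holds CCAAT, which is not marked. CCAAT was present for 21 of 24 sterol and fatty acid genes with a window (87.5%) and 22 of 30 mitosis genes (73.3%), against 43.8% of tested genes, and for 53.2% of genes lower by more than 1.5-fold. TTTGAA was present for 23 of the 30 mitosis genes (76.7%) against 14.9% of tested genes. The sterol letters stood in 1 of 24 windows (4.17%), that of Hmgcs1, against 1.38% of tested genes. In these letters Hmgcs1 is thus not typical of its list. A match of letters describes the window and does not show that a factor binds there.

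Autophagy, by which cells digest their own contents, was another program below Mock. Of 32 genes 20 were lower and 8 higher, and 14 fell beyond 1.5-fold against 1 that rose. The falls took in the initiating kinase complex, with Ulk1, Atg13, Rb1cc1 and Atg101 at -1.36, -1.56, -1.17 and -0.78. Atg13 was at 15.6, 15.9 and 14.8 CPM against 46.03, 40.7 and 50.03 CPM in Mock (SE 0.073, edgeR adjusted p = 6.70e-14). The lipid transfer protein Atg2a was at 18.7, 16.2 and 16.7 CPM against 56.02, 57.1 and 55.2 CPM (-1.71, SE 0.06, edgeR adjusted p = 8.02e-16), and the receptor gene Calcoco1 fell (-1.74). In contrast Sqstm1, the receptor p62, Becn1 and the conjugating enzyme Atg3 rose by 0.24, 0.28 and 0.73. Lysosome genes were nearer to Mock: of 43, 20 were within 1.2-fold, 18 lower and 8 higher (3 with library size alone). Lipa, the lysosomal lipase, was at 30.5, 26.9 and 24.97 CPM against 91.5, 87.00 and 94.6 CPM in Mock (-1.73, SE 0.066, edgeR adjusted p = 2.71e-15), whereas the proteases Ctsl and Ctsb were within 1.2-fold (0.02 and 0.15).

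Programs that ended near Mock included the proteasome, where 16 of 31 subunits were held within 1.2-fold, none passed 1.5-fold, and 13 were higher and 6 lower (12 with library size alone). Psma5, a core subunit, was at 299.7, 256 and 306 CPM with HT-DNA+AOA against 292, 275 and 284 CPM in Mock (0.02, 95% interval -0.10 to 0.13). The list's median was 0.06, against 0.30 for HT-DNA alone over the same Mock libraries. The 10 most abundant genes within 1.2-fold were Def8, Ftl1, Hspa5, Pkm, mt-Nd5, Rpl41, Vim, Rps2-ps10, Hsp90ab1 and Ptma. Vim, the intermediate filament protein of fibroblasts, was at 3101, 3058 and 2969.8 CPM against 2857, 2833 and 2839 CPM (0.10, 95% interval 0.01 to 0.19), and the ferritin chain Ftl1 at 2367, 2298 and 2373 CPM against 2344, 2325 and 2654 CPM (-0.06, 95% interval -0.17 to 0.06). Def8 was the most abundant entry of the table, at 49462, 55188 and 53183 CPM against 49896, 50942 and 49273 CPM in Mock; whether its reads come from that gene alone was not tested. Small changes near Mock could turn on 1 library. Among genes given as held near Mock, the call changed to higher for Ifi27 (0.21) and Rps2-ps10 (0.17) and to lower for Rela (-0.20) without HT-DNA+AOA replicate 2. It changed to lower for Rela (-0.16) without Mock replicate 2 and for Atf4 (-0.13) without Mock replicate 1, and to higher for Vim (0.12) without HT-DNA+AOA replicate 3 and for Atp5a1 (0.12) and Rps2-ps10 (0.20) without Mock replicate 3. Jak1, Ptma and Lgals3bp each lost their call in 2 of the 6 fits that leave out 1 library, Ptges in 4 and Fabp4 in 1, and with library size alone Hsp90ab1, Ctsb, Cd68 and Ptma were not called. That scaling, which lowers all genes, also called lower many genes given as held near Mock: Hspa5 (-0.17), Pkm (-0.17), Ftl1 (-0.18), Atf4 (-0.22), Rela (-0.25), Prdx1 (-0.15), Acly (-0.19), Bax (-0.197), Bid (-0.18), Mcl1 (-0.21) and Ddx10 (-0.21). Medians near 0 depend on the scaling: with library size alone 9 of the 39 list medians changed sign. These were p53 targets and growth arrest, MAP kinase feedback, glycolysis, the TCA cycle, both parts of the respiratory chain, TGF-beta, the proteasome and histones.

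**Figure D3:**
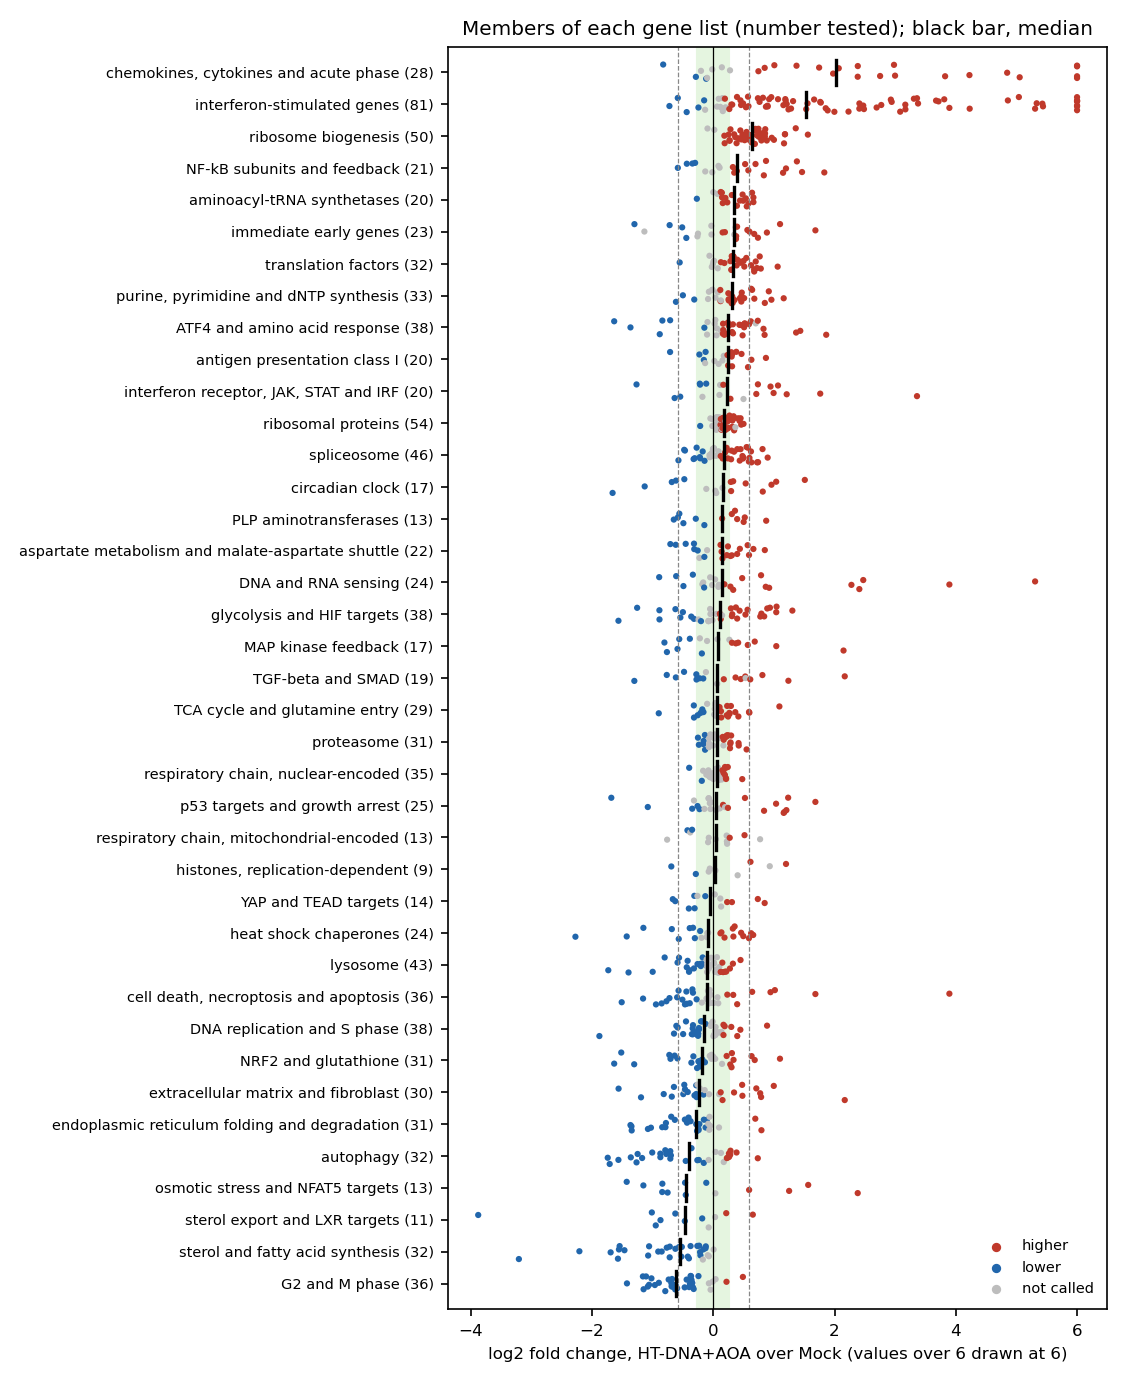
Log2 fold change of HT-DNA+AOA over Mock for every tested member of the 39 gene lists, ordered by median (black bar); red, blue and grey points are genes called higher, lower or not called, the green band is 1.2-fold and the dashed lines 1.5-fold. Medians run from 2.02 for chemokines and cytokines down to -0.61 for mitosis genes, and 25 of the 39 lie within the green band.

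Regulatory and structural lists held members on both sides, as did all genes tested (30.4% higher and 30.7% lower). Of 25 p53 targets and growth arrest genes 10 were higher and 5 lower (11 with library size alone). Cdkn1a, the inhibitor p21, was at 85.3, 107 and 109 CPM against 65.3, 68.5 and 76.2 CPM in Mock (0.52, SE 0.086, edgeR adjusted p = 9.63e-05), Gadd45a and Plk2 rose by 1.17 and 1.24, and the inhibitor p27, Cdkn1b, fell (-1.08). Among 36 cell death genes 16 were lower and 8 higher. The apoptosome genes Casp9 and Apaf1 fell, Casp9 to 9.35 ± 1.01 CPM against 26.5 ± 1.38 CPM in Mock (SD, n = 3; -1.51; Apaf1 -0.94), the necroptosis kinase Ripk1 fell (-0.72) and Mlkl, its executioner, rose by 0.39. Bax, Bid and Mcl1 were within 1.2-fold. Immediate early genes had 12 of 23 higher and 4 lower (7 with library size alone), with Fosl1 and Jun at 1.10 and 0.68 and Ier5 at -0.72. In MAP kinase feedback 7 of 17 were higher and 6 lower: the phosphatase Dusp5 rose by 2.15 and Dusp1 fell (-0.81).

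Clock genes ended on both sides of Mock. The output factors Dbp and Tef fell (-1.66 and -0.68), while another output factor, Hlf, rose by 1.04. Per3 fell (-1.13), as did the repressors Nr1d1 and Nr1d2 (-0.48 and -0.61). Per2 was at 17.2, 17.8 and 19.9 CPM against 6.57, 6.43 and 6.27 CPM in Mock (1.51, SE 0.11, edgeR adjusted p = 4.90e-11). The activators Clock and Arntl rose by 0.29 and 0.53. In all, 8 of 17 were higher and 5 lower. Osmotic stress genes were lower in 8 of 13 and higher in 4, the inositol transporter Slc5a3 falling (-0.75) and the glutamine transporter Slc38a1 rising by 1.57. TGF-beta and SMAD genes numbered 8 higher and 8 lower of 19, and the ligand Tgfb3 fell (-1.30). YAP and TEAD targets numbered 4 higher and 6 lower of 14. Over all genes tested 30.4% were higher and 30.7% lower.

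Fibroblast genes were checked as the identity of the line. Of 10 fibroblast markers tested 7 were lower and 2 higher, and their summed level was 5518 to 5644 CPM with HT-DNA+AOA and 5911 to 6053 CPM in Mock. Most of that sum came from Vim and S100a4, which averaged 3043 and 1555 CPM against 2843 and 1880 CPM in Mock. Col1a2, a chain of type I collagen, was at 54.4, 50.4 and 62.5 CPM against 172, 166 and 156 CPM in Mock (-1.56, SE 0.063, edgeR adjusted p = 3.36e-14). The growth factor receptors Pdgfra and Pdgfrb fell (-0.82 and -1.19), while Fn1, fibronectin, and Col5a1 rose by 0.77 and 0.79. In the wider matrix list 14 of 30 were lower and 10 higher. The markers Thy1 and Lox had almost no counts in either group, and neither had some matrix list genes, such as Dcn, Lum and Postn. Of macrophage and leukocyte markers 3 of 10 passed the filter: Cd68, which fibroblast lines also express, rose by 0.21, Cd14 and Lyz2 stayed under 1 CPM, and Ptprc and Adgre1 had at most 1 count in either group. The summed level of the 3 was 319 to 359.99 CPM with HT-DNA+AOA and 287 to 309.9 CPM in Mock, nearly all from Cd68. Of 8 endothelial markers 2 passed, Vwf at 2.89, 3.04 and 2.39 CPM against 4.79, 5.26 and 6.31 CPM in Mock and Cdh5 under 1 CPM. Of 7 epithelial markers 2 passed, with none called and sums under 2.5 CPM in every library, and of 8 lymphocyte markers Cd79a alone passed, under 1 CPM. Of 8 adipocyte and muscle markers 3 passed and summed to 154 to 170.3 CPM against 183 to 190 CPM in Mock, mostly from the lipid carrier Fabp4 (-0.15). The part of these small shifts in the results was not tested. Whether fewer cells or less RNA per cell lowers a gene cannot be told apart in bulk RNA.

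Set beside HT-DNA alone, the list medians show where the combined response ended relative to DNA without AOA. Both comparisons share the Mock libraries, so their values are given side by side without a test. The median of chemokines and cytokines was 2.02 with AOA and -0.01 without it, and that of interferon-stimulated genes 1.53 and 0.45. Ribosome biogenesis stood at 0.64 and 0.50, translation factors at 0.33 and 0.30, and autophagy at -0.41 and -0.37. In these 3 lists both values lay on the same side of Mock. Mitosis genes had medians of opposite sign, -0.61 and 0.19, as did endoplasmic reticulum genes, -0.28 and 0.08, and ATF4 genes, 0.25 and -0.10. Among single genes, Plk1 averaged 56.4 CPM with HT-DNA+AOA, 172 CPM with HT-DNA and 126 CPM in Mock, and Ddit3 averaged 398, 109 and 154 CPM in the same order.

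**Figure D4:**
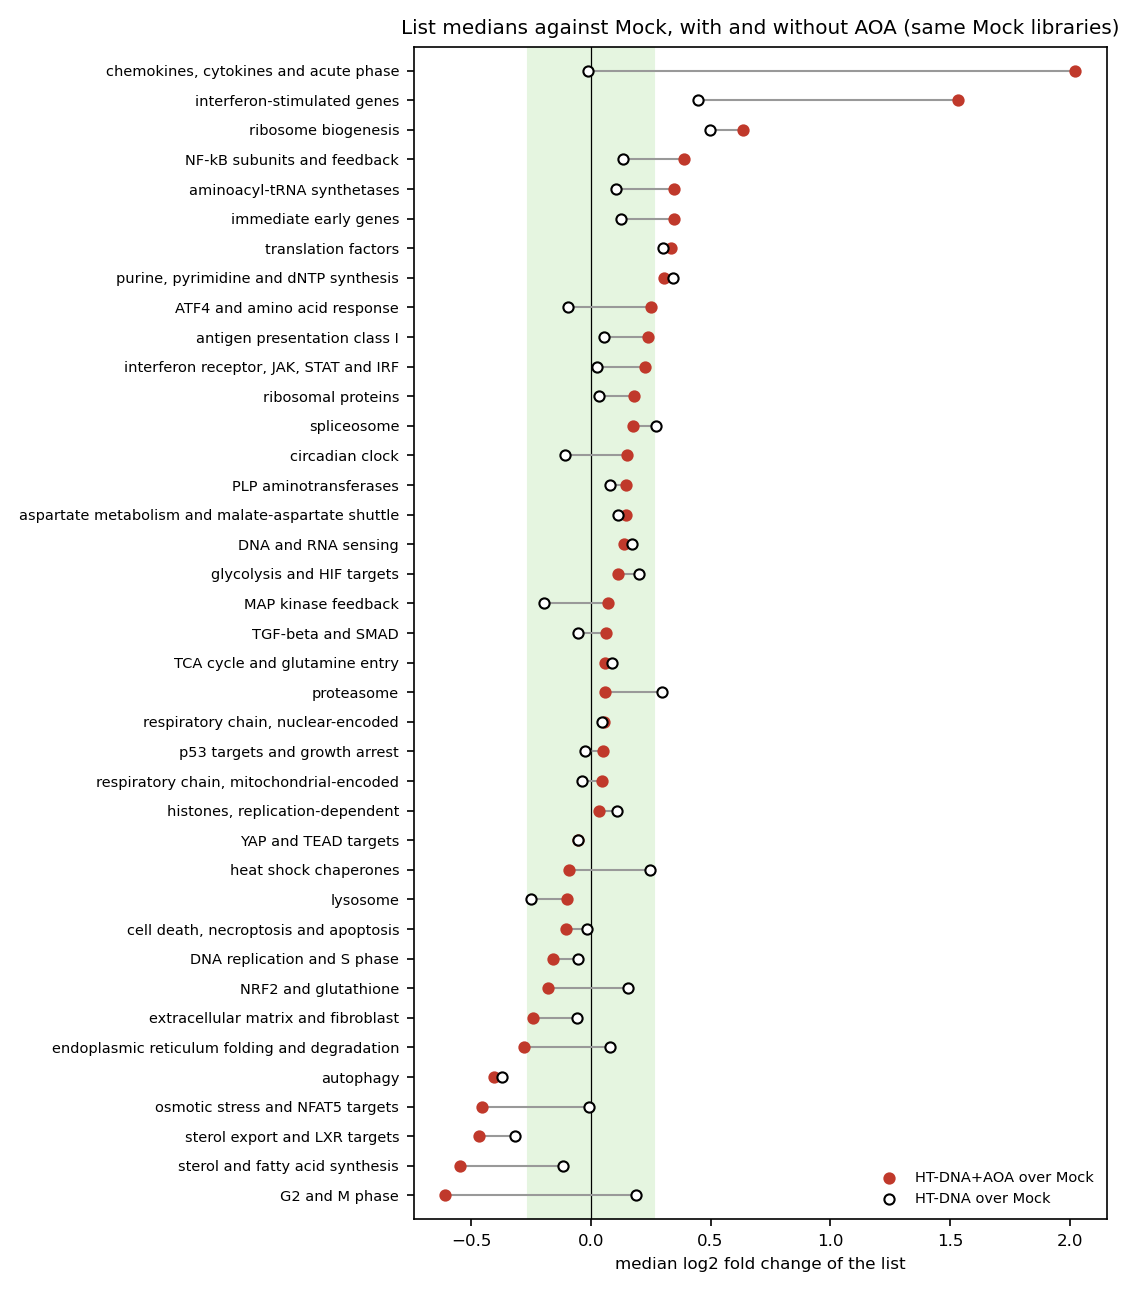
Median log2 fold change of each gene list over Mock with HT-DNA+AOA (red) and with HT-DNA alone (open), joined by a line; the green band is 1.2-fold. The points of chemokines lie furthest apart, those of translation factors and autophagy nearly coincide, and those of mitosis, endoplasmic reticulum and ATF4 genes lie on opposite sides of 0.

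KEGG pathways in the annotation of the deposited table were described in the same way. Of 292 KEGG pathways with 15 to 200 tested genes, 135 had a median above 0 and 157 below. The highest medians were those of Viral protein interaction with cytokine and cytokine receptor (0.85; 18 of 33 genes higher), Ribosome biogenesis in eukaryotes (0.43; 55 of 69) and Graft-versus-host disease (0.40; 12 of 28). Autoimmune thyroid disease, Allograft rejection, Intestinal immune network for IgA production, Type I diabetes mellitus and Antifolate resistance followed, at 0.38, 0.38, 0.37, 0.35 and 0.32. The lowest medians were those of chondroitin and dermatan sulfate synthesis (-0.43), Terpenoid backbone biosynthesis (-0.42; 15 of 21 lower), Steroid biosynthesis (-0.37; 12 of 16) and the PPAR signaling pathway (-0.30; 28 of 50). GnRH secretion, Other glycan degradation, ABC transporters and Phosphatidylinositol signaling followed, at -0.28, -0.26, -0.25 and -0.25. The largest shares within 1.2-fold were in Glycosaminoglycan degradation (9 of 15 genes), Oxidative phosphorylation (61 of 119) and the Proteasome (20 of 42), against 20.4% of genes with any pathway. Cell cycle (-0.13; 59 of 115 lower), Autophagy - animal (-0.13; 62 of 127) and Protein processing in endoplasmic reticulum (-0.06; 60 of 152) were not among the 8 lowest. Pathways share genes, so neighbouring medians are not independent.

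**Figure D5:**
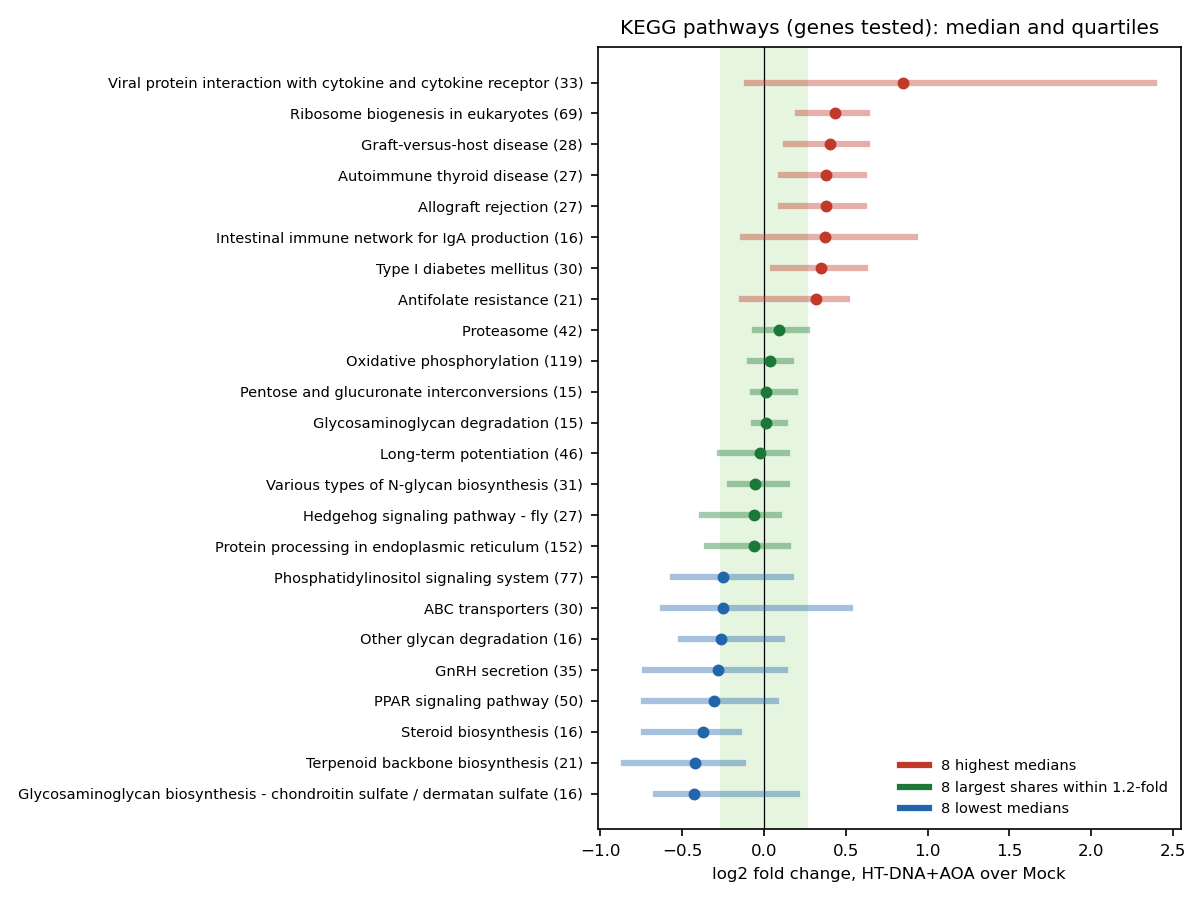
Median (point) and range between the lower and upper quartiles (bar) of the log2 fold changes of HT-DNA+AOA over Mock for the 8 KEGG pathways with the highest medians (red), the 8 with the largest shares within 1.2-fold (green) and the 8 with the lowest medians (blue), with the number of genes tested. Medians run from 0.85 for cytokines and their receptors down to -0.43 for chondroitin and dermatan sulfate synthesis.

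The 12 largest falls lay outside these lists for the most part. Besides Abcg1, Lpin1 and Mxd4 they took in the transporter Slco4a1 at 0.648, 0.922 and 0.542 CPM against 9.28, 9.56 and 12.1 CPM in Mock (-3.84, SE 0.20, edgeR adjusted p = 3.77e-13), Ndrg4 at 0.997, 0.845 and 1.72 CPM against 12.9, 12.4 and 11.7 CPM (-3.38, SE 0.16, edgeR adjusted p = 1.17e-13) and Mturn (-3.34). Vsir, an immune checkpoint receptor, Slco2b1 and the RNA-binding Celf5 fell (-2.78, -2.74 and -2.60), as did Btnl7-ps and Scgb1b30 (-3.09 and -2.64). Pagr1a had the largest fitted fall of the 12, -5.11, at 0.249, 0.115 and 0.135 CPM with HT-DNA+AOA against 11.4, 4.95 and 1.16 CPM in Mock, where the libraries spread widely (SE 1.41, edgeR adjusted p = 0.0122; -4.18 without Mock replicate 1). Among rises outside the interferon and chemokine lists, Abcb1a, a drug efflux pump, was at 6.08, 7.45 and 8.13 CPM against 0.222, 0.174 and 0.0387 CPM in Mock (5.63, SE 0.36, edgeR adjusted p = 1.02e-11). Almost silent in Mock, Abcb1a passed the filter only through libraries where it was high, so its call largely followed from being tested.

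The libraries were of similar size, but their TMM factors differed by group. The factors were 0.954 to 0.965 for HT-DNA+AOA and 1.030 to 1.049 for Mock. HT-DNA+AOA libraries held 20876925 to 27309291 estimated counts and Mock libraries 21484229 to 25102309. On the first principal component of the 6 libraries, with 72.3% of the variance, HT-DNA+AOA lay at -46.4 to -40.9 and Mock at 43.4 to 45.2. The second, with 8.12%, set HT-DNA+AOA replicate 1 at 29.4, apart from the other libraries. By transcript length, 39.7% of genes in the longest of 4 length bins were lower and 29.1% higher, against 19.9% and 27.4% of the shortest bin. By abundance, 47.0% of the most abundant of 4 bins were higher and 29.3% lower, against 16.9% and 17.3% of the least abundant; the part of length and abundance in the results was not tested.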

How the data were processed

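RNA was sequenced by the authors, who deposited estimated counts per gene that need not be whole numbers; how reads were aligned and counted, on which genome build and with which strand setting, is not given in the sources used here. The table held 56287 entries, 26710 of them with no count. Estimated counts were rounded. Genes were filtered with filterByExpr (minimum count 10, minimum total 15) and tested with edgeR 4.0.16 in R 4.3.3: TMM scaling, robust quasi-likelihood fit of all 12 libraries with a term per group and no block, 8 residual degrees of freedom, Benjamini-Hochberg adjustment over 14694 genes, calls at 0.05. glmTreat asked for changes beyond 1.5-fold. A gene was near Mock when the 95% interval of its fold change, from its SE, lay within 1.2-fold. The SE was the absolute log2 fold change divided by the square root of F, which is too small for genes nearly silent in Mock. CPM used TMM-scaled library sizes. Where a symbol had more than 1 entry, lists used the most abundant.

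Lists, members and tests were chosen with earlier results of these data known, and 40 gene lists and 6 marker lists were used. Named by rule were the 12 largest rises and falls among called genes of 5 CPM or more whose groups did not overlap, up to 3 members a list with the largest change, up to 2 a list within 1.2-fold, the 10 most abundant genes within 1.2-fold and 17 genes in any case; other genes were named after their values were seen. KEGG pathways come from the deposited table. Upstream windows are RefSeq's and matched 10036 tested genes by symbol. The fit was tested on simulated data, where it recovered 60% of planted 1.5-fold changes and 78% of planted 2-fold changes. Of unchanged genes there, 0.041% were called and 52.1% were held within 1.2-fold. Replicates of a group differed by more than sampling noise (chi-square over its degrees of freedom 2.15 to 7.96) and all were kept as distinct libraries. Alternatives were other scalings, filters and samples, DESeq2 1.42.0, a replicate block, a stricter null and leaving out each library. Some genes are not reported here.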

Additional observations from a re-analysis of the deposited data

How the results depend on the processing

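Counts of called genes kept within 1.5 times of those reported under all but 1 of the alternatives run. DESeq2 called 4334 genes higher and 4235 lower, but beyond 1.5-fold 803 higher and 783 lower. The stricter glmTreat null, added after the data were seen, gave 932 and 963 there. Leaving out each library in turn gave 4196 to 4346 higher and 4192 to 4358 lower. Library size alone turned the medians of p53 targets and growth arrest (-0.070), the TCA cycle (-0.059), the nuclear respiratory chain (-0.063), the proteasome (-0.059) and histones (-0.083) below 0. Medians of MAP kinase feedback (-0.048), glycolysis (-0.0073), the mitochondrial-encoded respiratory chain (-0.075) and TGF-beta (-0.054) turned below 0 as well. The same scaling turned the log2 fold changes of Aldoa (-0.0094), Cs (-0.015) and Eif4b (-0.12) below 0. By construction this scaling shifts all genes down. With replicate number as a block, 4364 genes were higher and 4406 lower; same-numbered libraries did not deviate together (r = 0.0235, 0.0447 and -0.0074), so the numbers are not read as pairs. For named genes, 2946 values under an alternative kept their direction and side of the threshold, 58 newly passed it and 87 no longer did. Changes of under 1.2-fold in genes of few counts are not detectable at this depth. Part of the 1.5-fold and 2-fold changes planted in simulated data was missed too.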

Other observations

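Classes of genes outside protein coding differed in their balance. In HT-DNA+AOA cells 21.6% of 398 antisense genes were higher and 11.6% lower than in Mock, with a median log2 fold change of 0.19. For 220 processed transcripts the shares were 30% and 14.1% (median 0.21) and for 388 entries of the class TEC (unverified transcripts) 22.4% and 9.02% (median 0.21), against 32.6% and 34.1% of 11917 protein-coding genes (median -0.01). The 418 lincRNA genes were balanced, with 21.5% higher and 20.8% lower (median 0.0013), 400 processed pseudogenes had 17.5% higher and 8.75% lower (median 0.14), 52 transcribed processed pseudogenes 26.9% and 11.5% (median 0.090) and 51 unprocessed pseudogenes 23.5% and 9.80% (median -0.037). Of 687 entries without a class, 17.9% were higher and 28.1% lower (median -0.16). Gene classes are those of GENCODE vM21, matched for 14007 of the genes tested. Without a stated strand setting, reads of an antisense gene and of its partner cannot be told apart.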
